A study of Mus musculus with 6 samples.

Results

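The insulin-like growth factor (IGF) system was examined in the brains of mice with an activated human SRY transgene through the probes of 10 genes, namely the ligands Igf1 and Igf2, the receptors Igf1r and Igf2r and the binding proteins Igfbp2 to Igfbp7. Every probe in the brain table that carried one of these gene symbols was taken, which gave 15 of the 25697 probes on the array. Of these, 13 probes, with at least 1 for each of the 10 genes, were bright enough to be tested, and they stood among 14215 tested probes in all.

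IGF1 and IGF2 are secreted peptides that promote growth and survival of cells, and both act through IGF1R, a receptor tyrosine kinase that signals through insulin receptor substrates to the PI3 kinase and AKT pathway and to the RAS and MAP kinase pathway. IGF2R, the cation-independent mannose 6-phosphate receptor, takes up IGF2 and carries it to lysosomes, so it clears the ligand and does not relay a growth signal. The secreted IGF-binding proteins hold the ligands outside the cell and either store them or keep them from the receptor. In the brain, IGF1 comes from neurons and glia, whereas the choroid plexus, the meninges and vessels are the main sources of IGF2.

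The question was which genes differ in expression when SRY, the Y-linked gene that starts testis development, is active where it normally is not. Brains of male FVB mice (FVB/N background) at postnatal day 6 were compared on the MouseRef-8 v2.0 BeadChip of Illumina. There were 3 arrays of hSRY-OFF and 3 of hSRY-ON mice. As the study's methods define the names, both groups carry the transgene Signalox-hSRY. It is present as a single copy at the H11 locus of chromosome 11 in 1 mouse line. In hSRY-OFF mice it is unrecombined, so the CAG promoter drives the red fluorescent protein gene DsRed2. In hSRY-ON mice Cre recombinase from the oocyte of a Ddx4-Cre mother has removed DsRed2, and CAG drives FLAG-tagged human SRY together with EGFP. The study also calls the arrayed hSRY-OFF mice controls, and its control littermates lack the transgene. The sample titles do not settle which is meant. The hSRY-ON mice were chosen not to carry Ddx4-Cre themselves, and the CAG promoter is active in most cell types, so the model is not one of SRY in a particular brain cell. The groups are matched by age and sex, and the labels do not name their litters. The mothers of the hSRY-OFF mice are not stated. A part of litter or mother in a difference therefore cannot be told apart from that of the transgene. The study calls the arrays biological triplicates, and p-values measure the spread between these samples. The human transgene was not measured, so the arrays hold no direct check of its activity. The study reports that hSRY-ON pups grew more slowly than controls, suckled little and had smaller brains. Some had died by postnatal day 6. The part of feeding, growth or survival in the values here was not tested.

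The deposited median intensity was 204 to 220 on the hSRY-OFF arrays and 200.2 to 210 on the hSRY-ON arrays, and 13816 to 14211 and 13972 to 14377 probes were detected on them. Normalized log2 signals correlated at r = 0.994 for each pair of hSRY-OFF arrays and at 0.991 to 0.993 between hSRY-ON arrays. Between the groups they correlated at 0.986 to 0.990, so by this measure each array was more like its own group. Calls of single probes still depended on which array was left out, as given below.

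Across all tested probes, 308 of 14215 (2.17%) were called different between hSRY-ON and hSRY-OFF at an adjusted p under 0.05 in limma, with 120 higher (0.844%) and 188 lower (1.32%) in hSRY-ON. Among the 13 tested IGF probes, 1 was called, that of Igf1r, which was higher in hSRY-ON. At an unadjusted p under 0.05 there were 6 IGF probes, 3 higher (Igf1r, Igfbp3 and 1 probe of Igfbp7) and 3 lower (both probes of Igfbp2 and 1 of Igfbp4), beside 20.9% of all tested probes (10.1% higher and 10.9% lower). The 3 hSRY-ON values lay wholly outside the 3 hSRY-OFF values for 5 IGF probes, 2 above and 3 below, and for 27.7% of all tested probes (13.5% above and 14.2% below). The log2 fold changes (hSRY-ON minus hSRY-OFF) of the IGF probes had a median of -0.077, beside 0.0048 for the whole set tested. Hence 1 call, for Igf1r, is what the IGF system gave at this threshold, and the other members are described by their values.

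**Figure D1:**
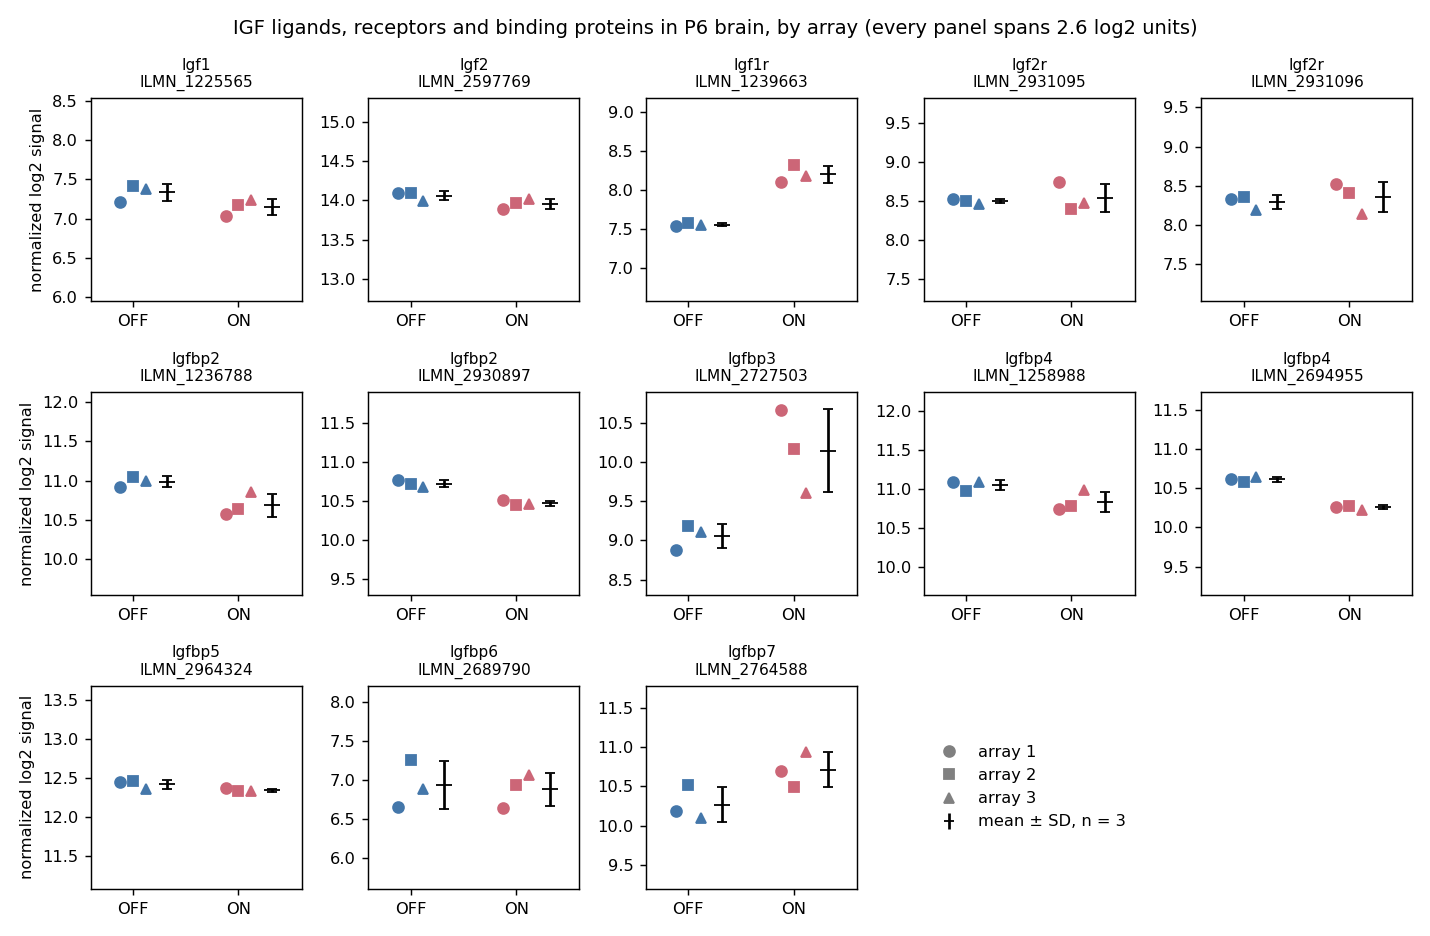
Normalized log2 signal (vertical axis) of the 13 tested IGF probes on each hSRY-OFF (blue) and hSRY-ON (red) array. Symbols are the arrays, black bars the mean ± SD (n = 3), and all panels have the same span. The Igf1r and Igfbp3 values lie higher on all 3 hSRY-ON arrays, those of both Igfbp2 probes and of Igfbp4 ILMN_2694955 lie lower, and the groups overlap in the other panels.

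The 250 bases before the start of Igf1r, Igfbp3 and Igf2 are shown because Igf1r was the only called member, Igfbp3 had the largest difference between the groups, and Igf2 alone held the core motif bound by SRY. The sequences are those of RefSeq (GRCm38.p6) and are written 5′ to 3′ on the strand of the gene. All 10 members had at least 1 such window, 14 in all with the alternative starts. They were searched on both strands for AACAAT, the core motif of the SRY high-mobility-group box, and for AACAAAG, a related motif that shares its first 5 letters. Capitals mark the match, which stands here as ATTGTT because it is on the opposite strand.
Igf1r, chr7:67952007-67952256, plus strand: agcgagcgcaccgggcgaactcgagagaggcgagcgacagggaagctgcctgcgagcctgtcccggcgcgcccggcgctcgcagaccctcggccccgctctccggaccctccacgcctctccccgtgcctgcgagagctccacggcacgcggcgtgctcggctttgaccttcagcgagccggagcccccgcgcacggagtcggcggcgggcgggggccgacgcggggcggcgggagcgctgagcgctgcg
Igfbp3, chr11:7213924-7214173, minus strand: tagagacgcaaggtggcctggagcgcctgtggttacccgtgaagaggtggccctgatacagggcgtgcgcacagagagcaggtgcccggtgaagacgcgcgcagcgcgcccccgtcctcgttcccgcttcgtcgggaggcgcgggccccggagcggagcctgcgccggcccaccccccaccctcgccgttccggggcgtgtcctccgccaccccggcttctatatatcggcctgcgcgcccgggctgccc
Igf2, chr7:142661272-142661521, minus strand: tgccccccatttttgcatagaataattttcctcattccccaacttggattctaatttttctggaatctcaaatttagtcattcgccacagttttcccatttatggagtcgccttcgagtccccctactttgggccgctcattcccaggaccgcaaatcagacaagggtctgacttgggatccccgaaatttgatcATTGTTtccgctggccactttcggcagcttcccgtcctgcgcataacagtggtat

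AACAAT was found in 1 of the 14 member windows, that of an alternative Igf2 start, where it began at position -55 relative to the start, and in 9.42% of 32851 windows of the same length from all genes. AACAAAG was in no member window and in 5.03% of all windows. The Igf1r and Igfbp3 windows were rich in G and C (77.6% and 73.2%, against a median of 52.4% over all windows). A match is only a description of the letters, and a window without one says nothing of binding elsewhere. In the RefSeq annotation, Igfbp3 and Igfbp4 lie on chromosome 11, which also carries the transgene.

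The ligands did not differ detectably between the genotypes. The deposited intensity of the Igf1 probe ILMN_1225565 was 324, 319 and 308 in hSRY-OFF replicates 1 to 3 and 284, 284 and 294 in hSRY-ON replicates 1 to 3. After background correction and quantile normalization the log2 signals were 7.21, 7.42 and 7.37 against 7.03, 7.17 and 7.23. The groups were thus separate as deposited but overlapped after normalization, where hSRY-ON array 3 lay above hSRY-OFF array 1. The log2 fold change was -0.19 ± 0.095 (SE; 95% CI -0.41 to 0.04; limma adjusted p = 0.309). The other Igf1 probe, ILMN_2647594, was not detected on any array (deposited intensity 175 to 192 and 168 to 177) and gave no comparison.

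Igf2, the ligand prominent before birth and transcribed mainly outside neurons in the brain, was bright, with deposited intensities of 19207, 17109 and 16044 in hSRY-OFF and 15754, 15276 and 16585 in hSRY-ON. After normalization the log2 signal averaged 14.06 ± 0.06 in the former and 13.96 ± 0.06 in the latter (SD, n = 3 each), and the groups overlapped on both scales. The log2 fold change was -0.10 ± 0.079 (SE; 95% CI -0.29 to 0.08; limma adjusted p = 0.500). Ins2 and the untranslated imprinted RNA H19, which lie near Igf2 on chromosome 7 with no protein-coding gene between, were read as well. Ins2 was not detected on any array. The deposited intensities of H19 were 682, 637 and 509 in hSRY-OFF and 751, 596 and 779 in hSRY-ON, which overlapped (log2 fold change 0.36 ± 0.157, SE; limma adjusted p = 0.254).

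Igf1r, which encodes the signalling receptor for both ligands, rose in hSRY-ON brain. The deposited intensities of its probe ILMN_1239663 were 367, 337 and 328 in hSRY-OFF and 433, 449 and 426 in hSRY-ON. The normalized log2 signals were 7.53, 7.57 and 7.54 against 8.11, 8.31 and 8.17, so every hSRY-ON array lay above every hSRY-OFF array on both scales and the gap between the groups exceeded the spread within either. The log2 fold change was 0.65 ± 0.084 (SE; 95% CI 0.45 to 0.84), or 1.56-fold, with a limma adjusted p of 0.0263, and its p ranked 49 of the 14215 tested probes. In RNA of brain tissue, more cells of a type that expresses Igf1r and more Igf1r RNA per cell cannot be told apart.

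The size and sign of the Igf1r difference were steadier than its call. Without background correction, which leaves the differences of dim probes smaller, the log2 fold change was 0.39 (adjusted p = 0.0020). Leaving out hSRY-OFF array 1, 2 or 3 gave limma adjusted p values of 0.0921, 0.109 and 0.0900, and leaving out hSRY-ON array 1 or 2 gave 0.0740 and 0.0692, with log2 fold changes of 0.59 to 0.69 throughout. Each of these 5 smaller fits called 0 or 1 of all probes tested. Without hSRY-ON array 3, Igf1r was called (adjusted p = 0.0320).

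Igf2r, the clearing receptor, had 2 tested probes, and neither differed detectably. ILMN_2931095 had deposited intensities of 575, 507 and 488 in hSRY-OFF and 589.8, 468 and 486 in hSRY-ON. ILMN_2931096 had 519, 473 and 428 in hSRY-OFF and 528, 469.7 and 419.9 in hSRY-ON. For both probes the ranges of the groups overlapped almost wholly. The log2 fold changes were 0.039 (95% CI -0.21 to 0.29; limma adjusted p = 0.872) and 0.067 (95% CI -0.21 to 0.34; limma adjusted p = 0.788), and both turned negative without hSRY-ON array 1, to -0.064 and -0.019. Whether the receptors differed from each other in response was not tested.

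Among the 6 binding proteins, 0 of 8 tested probes were called in limma (2.17% of all tested probes), and 5 had an unadjusted p under 0.05 (20.9% of all), 2 higher and 3 lower in hSRY-ON. Igfbp3, the main carrier of IGFs in the circulation, had the largest difference of all members. The deposited intensities of its probe ILMN_2727503 were 691, 722 and 677 in hSRY-OFF and 1809, 1244 and 893 in hSRY-ON, each in the order of arrays 1 to 3. The normalized log2 signals were 8.88, 9.18 and 9.11 against 10.67, 10.17 and 9.60, so each hSRY-ON value lay above each hSRY-OFF value, but the hSRY-ON values were widely spread (SD 0.53, against 0.16 in hSRY-OFF).

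The mean difference of Igfbp3 was 1.09 ± 0.25 on the log2 scale (SE; 95% CI 0.50 to 1.68), or 2.13-fold, and missed the threshold (limma adjusted p = 0.0727). Its size and adjusted p moved when single arrays were left out. Without hSRY-ON array 3, the lowest of its group, the log2 fold change was 1.36 and the adjusted p was 0.0270. Without hSRY-ON array 1, the highest, these were 0.83 and 0.129. The adjusted p was also under 0.05 without background correction (0.0022), with normexp at an offset of 50 (0.0160), with array weights (0.0420) and with the stricter detection filter (0.0366). Igfbp1, the neighbour of Igfbp3 on chromosome 11 with no annotated gene between, was not detected on any array (deposited intensity 153 to 169.7 in hSRY-OFF and 149.7 to 181 in hSRY-ON).

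Igfbp2, an abundant binding protein of the developing brain and cerebrospinal fluid, was lower in hSRY-ON at both of its probes without passing the test. ILMN_1236788 had deposited intensities of 2339.5, 2233 and 2128 in hSRY-OFF and 1702, 1654 and 1923 in hSRY-ON. ILMN_2930897 had 2139, 1805 and 1725 in hSRY-OFF and 1647, 1467 and 1517 in hSRY-ON. Neither probe overlapped between the groups, as deposited or after normalization. The log2 fold changes were -0.30 ± 0.099 (SE; limma adjusted p = 0.151) and -0.25 ± 0.073 (SE; limma adjusted p = 0.122), and the probes target the same gene in the same RNA, so they are not independent samples of it. Both probes were called without background correction (adjusted p of 0.0331 and 0.0380) and with a trended, robust prior (0.0187 and 0.0387). Leaving out 1 array gave limma adjusted p values of 0.0722 to 0.332 for ILMN_1236788 and 0.153 to 0.271 for ILMN_2930897. The unadjusted p was under 0.05 in 3 and 6 of these 6 fits. Igfbp5, which adjoins Igfbp2 on chromosome 1 with no annotated gene between, had deposited intensities of 6414, 5652 and 5196 in hSRY-OFF and 5528, 5017 and 5198 in hSRY-ON. The Igfbp5 ranges overlapped, and its log2 fold change was -0.077 (95% CI -0.25 to 0.10; limma adjusted p = 0.601).

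Igfbp4, a binding protein that mostly restrains IGF action until it is cleaved, was read by 2 probes that were both lower in hSRY-ON. ILMN_2694955 had deposited intensities of 1936, 1653 and 1681 in hSRY-OFF and 1415, 1317 and 1292 in hSRY-ON. Its normalized log2 signals of 10.62, 10.58 and 10.64 against 10.26, 10.28 and 10.23 were tight within each group and did not overlap. The log2 fold change of -0.36 ± 0.072 (SE; 95% CI -0.53 to -0.19) came close to the threshold (limma adjusted p = 0.0557). The adjusted p fell to 0.0058 without background correction, 0.0245 with normexp at an offset of 50, 0.0275 with the stricter detection filter, 0.0043 with a trended, robust prior and 0.0487 with array weights. It was higher with median scaling (0.0693), with no filter on dim probes (0.0958) and without any 1 array (0.0766 to 0.160). The second probe, ILMN_1258988, had deposited intensities of 2617, 2136 and 2244 in hSRY-OFF and 1906, 1827 and 2107 in hSRY-ON. After normalization hSRY-ON array 3 was level with hSRY-OFF array 2, both at 10.98 on the log2 scale, and the log2 fold change was -0.21 ± 0.093 (SE; limma adjusted p = 0.248).

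Igfbp7, a low-affinity IGF binder secreted by vessel cells, had deposited intensities of 1486, 1601 and 1204 in hSRY-OFF and 1853, 1503 and 2047 in hSRY-ON at ILMN_2764588. Here hSRY-ON array 2 lay below hSRY-OFF array 2, so the groups overlapped. The log2 fold change was 0.45 ± 0.154 (SE; 95% CI 0.08 to 0.81; limma adjusted p = 0.164), with adjusted p values of 0.0263 without background correction and 0.0276 with a trended, robust prior. Leaving out 1 array gave log2 fold changes of 0.33 to 0.57 and limma adjusted p values of 0.152 to 0.340. The unadjusted p was under 0.05 in 2 of these 6 fits. Its other probe, ILMN_2634286, was not detected on any array, with deposited intensities of 149.6 to 161 and 142 to 160.4. Igfbp6, which prefers IGF2 to IGF1, was dim, with deposited intensities of 270.1, 302 and 262 in hSRY-OFF and 254, 264 and 278 in hSRY-ON. The Igfbp6 groups overlapped and the log2 fold change was -0.050 with a wide interval (95% CI -0.46 to 0.36; limma adjusted p = 0.904), and its sign turned without hSRY-OFF array 2 (0.12) or hSRY-ON array 1 (0.069).

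**Figure D2:**
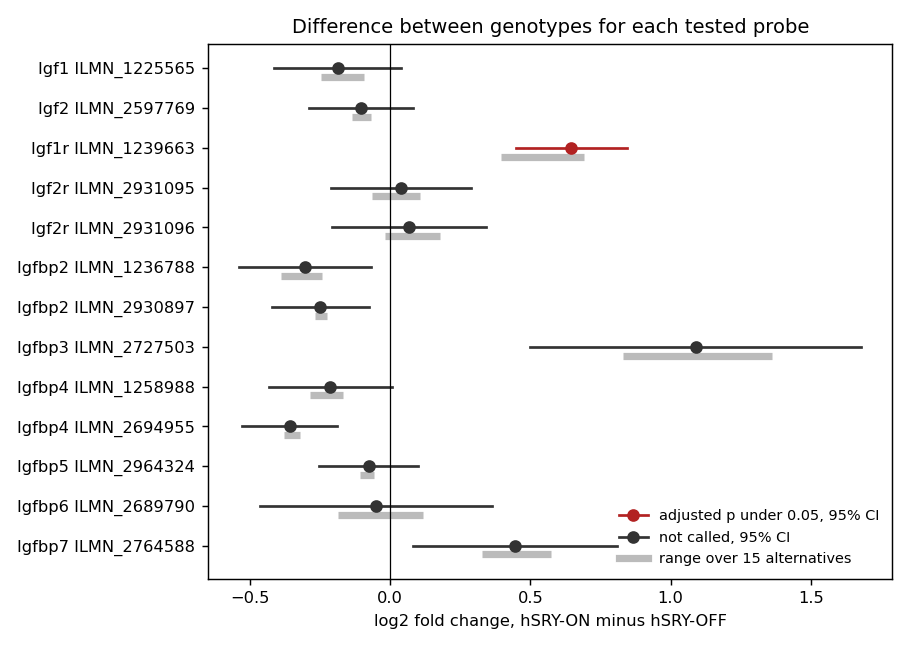
Log2 fold change (horizontal axis, hSRY-ON minus hSRY-OFF) of each tested IGF probe, with its 95% confidence interval as a line and the lowest to highest estimate over 15 alternative analyses as a grey bar. Only the Igf1r probe, in red, had an adjusted p under 0.05, and the grey bars cross 0 for both Igf2r probes and for Igfbp6.

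**Figure D3:**
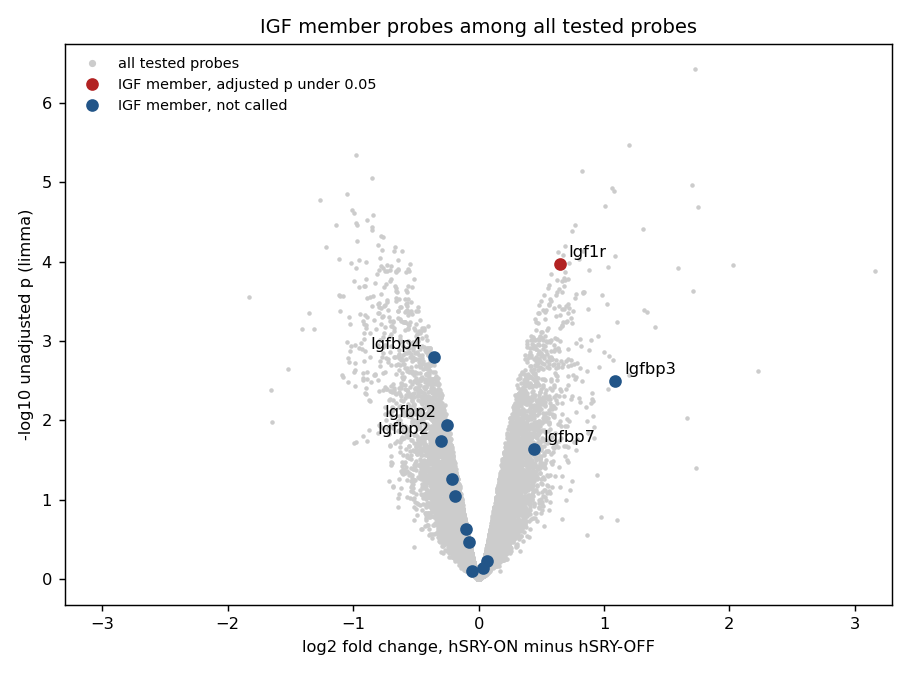
Log2 fold change (horizontal axis) against -log10 of the unadjusted limma p (vertical axis) for all 14215 tested probes in grey, with the IGF probes in blue and the called Igf1r probe in red. The Igfbp3 probe lies further right than Igf1r but lower, because its hSRY-ON values were more spread.

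Several members are made by cells of the vessels, meninges and choroid plexus, so marker genes of these cells were read on the same arrays. Of all tested probes, 2.17% were called and 20.9% had an unadjusted p under 0.05, and the counts of markers are to be read beside these shares. Counts and medians are over the marker probes detected on all 6 arrays, since a dimmer probe can pass the filter through its brighter group alone, and the summed signals are over all tested probes of a list. Of 12 such choroid plexus probes (13 tested) 1 was called and 7 had an unadjusted p under 0.05, 6 higher and 1 lower. The called one was 1 of the 3 probes of the water channel Aqp1, which was higher in hSRY-ON (log2 fold change 0.67, limma adjusted p = 0.0348). It was not called when any array but hSRY-ON array 3 was left out (adjusted p of 0.0784 to 0.113). The median of that list was 0.28 (0.37 over all 13 tested probes), and its summed normalized signal was 16930 to 20006 in hSRY-OFF and 20351 to 25517 in hSRY-ON, with no overlap. Most of that sum was Ttr (13989.5 to 16831 in hSRY-OFF and 17169 to 21609.5 in hSRY-ON), and without it the sum was 2829.9 to 3175 against 3182 to 3953, a split made after the values were seen. Ttr, the transthyretin gene that defines this epithelium, had deposited intensities of 15359, 16672 and 14408 in hSRY-OFF and 20848, 21638 and 17464 in hSRY-ON (log2 fold change 0.37, limma adjusted p = 0.144). Kcne2, a potassium channel subunit gene of the same epithelium, had a log2 fold change of -0.46 (limma adjusted p = 0.109).

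Of 12 endothelial probes 0 were called in limma (8 at an unadjusted p under 0.05, 2 higher and 6 lower), with a median of -0.33. Their summed signal was 10238 to 10568 in hSRY-OFF and 8224 to 9019.5 in hSRY-ON, and Kdr was not detected. Cldn5, the tight-junction gene of brain endothelium, had a log2 fold change of -0.42 (limma adjusted p = 0.126), whereas the receptor genes Flt1 and Eng had 0.49 and 0.39 (limma adjusted p of 0.131 and 0.122). The meningeal and fibroblast list had 0 of 12 probes called in limma (8 at an unadjusted p under 0.05, 4 higher and 4 lower), a median of -0.16 and overlapping sums of 9004 to 9525 and 8013 to 9816, with Col1a2 not detected. In it the collagen gene Col1a1 had a log2 fold change of -0.69 (limma adjusted p = 0.102) and Lum, a proteoglycan gene, -1.09 (0.0682), whereas the matrix protein gene Mgp had 0.51 (0.0861). Mural cells had 0 of 10 probes called in limma (2 at an unadjusted p under 0.05, 1 higher and 1 lower), a median of 0.028 and overlapping sums of 2560.4 to 2703 and 2445 to 2795, with Tagln not detected.

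Astrocyte markers had 2 of 9 probes called, both lower in hSRY-ON, namely Gfap (log2 fold change -0.83, limma adjusted p = 0.0308) and Aqp4 (-0.81, limma adjusted p = 0.0275). Neither was called when any array but hSRY-ON array 3 was left out (adjusted p of 0.0614 to 0.111), with log2 fold changes of -0.95 to -0.76 throughout. At an unadjusted p under 0.05 there were 2 higher and 3 lower, and the higher ones were the gap junction gene Gjb6 (0.46, limma adjusted p = 0.102) and the aldolase gene Aldoc (0.28, limma adjusted p = 0.105). The median of the list was -0.041 (-0.13 over all 10 tested probes) and its sums of 44919 to 45238 and 43534 to 49548 overlapped, with S100b not detected. Microglial markers had 0 of 8 called in limma (2 at an unadjusted p under 0.05, both higher), a median of 0.16 and sums of 2487 to 2712 in hSRY-OFF and 2989 to 3126 in hSRY-ON, with Itgam not detected. Neuronal markers were present, which fits the labelled tissue, with 0 of 11 called in limma (1 at an unadjusted p under 0.05, lower), a median of -0.020 and sums of 74503 to 81743 and 77584 to 78964, although the Snap25 probe was not detected. Erythroid markers had 0 of 3 called in limma (0 at an unadjusted p under 0.05), a median of -0.13 and sums of 32649.7 to 37127 and 29212 to 36514. The part of any of these cell types in the values of the IGF members was not tested.

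The rest of the IGF axis was read from a list of 29 genes. It includes genes that process the ligands and binding proteins, regulate their transcripts or drive them through growth hormone. It also holds genes outside these roles, such as Vtn and the insulin genes. Of the 29 genes, 27 had probes, and 20 probes of 15 genes were tested. In limma 1 probe was called (5% of the list, beside 2.17% of all tested probes), that of Vtn, which was lower in hSRY-ON. Vitronectin is a matrix protein that binds integrins. The deposited intensities of Vtn were 3200.2, 2919 and 2909 in hSRY-OFF and 1859, 1892 and 2157 in hSRY-ON, without overlap, and the log2 fold change was -0.59 ± 0.0999 (SE; limma adjusted p = 0.0386). When any array but hSRY-ON array 3 was left out, 0 probes of the list were called in limma (5 to 8 at an unadjusted p under 0.05). The median log2 fold change was 0.16, beside 0.0048 for all tested probes. Over the 14 probes detected on all 6 arrays, 1 was called and 5 had an unadjusted p under 0.05, 4 higher and 1 lower, beside 20.9% of all tested probes (10.1% higher and 10.9% lower).

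Htra1, a secreted serine protease that can cleave IGF-binding proteins, was higher at both of its probes without reaching the threshold. ILMN_2966104 had deposited intensities of 1879.5, 1498 and 1621 in hSRY-OFF and 2791, 2273 and 2036 in hSRY-ON. ILMN_2746738 had 1864, 1902 and 2012 in hSRY-OFF and 2978, 2589 and 2392 in hSRY-ON. Neither probe overlapped between the groups, and the log2 fold changes were 0.61 ± 0.118 (SE; limma adjusted p = 0.0513) and 0.56 ± 0.120 (SE; limma adjusted p = 0.0616).

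The RNA-binding proteins named for binding the Igf2 transcript had log2 fold changes of 0.38 for Igf2bp2 (limma adjusted p = 0.124) and 0.38 for Igf2bp3 ILMN_1218913 (limma adjusted p = 0.153). Stat5a, a transcription factor downstream of the growth hormone receptor, was dim at ILMN_2976191, at 190.2 to 205 in hSRY-OFF, where 2 arrays detected it, and 199 to 209.7 in hSRY-ON, where 3 did. The growth hormone gene Gh was detected on 1 hSRY-OFF and 2 hSRY-ON arrays, at 207, 171 and 168 against 249.6, 229 and 179.6, which overlapped. The growth hormone receptor Ghr had log2 fold changes of 0.068 and 0.094 at its probes, and Socs2, a feedback inhibitor of that receptor, had 0.17 (limma adjusted p = 0.262). None of the probes of Igfbp1, Igfals, Ins1, Ins2, Insrr, Igf2bp1, Lrp2, Stat5b or Stc1 was detected on any array, and that of the insulin receptor gene Insr was detected on 1.

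Downstream of the receptor, a list of 39 genes of the insulin receptor substrate, PI3 kinase, AKT, mTOR and MAP kinase branches was read, of which 38 had probes and 42 probes of 29 genes were tested. In limma 0 of these probes were called, beside 2.17% of all tested probes, and 11 had an unadjusted p under 0.05, 6 higher and 5 lower, beside 20.9% of all. The median log2 fold change was 0.023, close to that of all tested probes. Of the 37 probes detected on all 6 arrays, 7 had an unadjusted p under 0.05, 4 higher and 3 lower, so both counts were near that share. Without hSRY-ON array 3, 1 probe of the list was called.

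Irs2, the substrate that couples the receptor to PI3 kinase, had deposited intensities of 712, 571 and 541 in hSRY-OFF and 785, 751 and 611 in hSRY-ON, with a log2 fold change of 0.39 (limma adjusted p = 0.153). Gab1, a docking protein for PI3 kinase, had 2254, 2001 and 1644 in hSRY-OFF and 1631, 1414 and 1556 in hSRY-ON, with a log2 fold change of -0.32 (limma adjusted p = 0.134). Both missed the threshold, in opposite directions.

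The other 4 probes named by rule were near background. Sos1, an activator of RAS, was detected on 0 hSRY-OFF and 3 hSRY-ON arrays, at 177 to 183 against 187 to 216. A probe of the kinase Akt1 was detected on 3 hSRY-OFF and 0 hSRY-ON arrays, at 198 to 223 against 177 to 191. A probe of Pik3r1, a regulatory subunit of PI3 kinase, was detected on 1 hSRY-OFF and 3 hSRY-ON arrays, at 187 to 195 against 191 to 213. A probe of Rps6kb1, the S6 kinase gene, was detected on 3 hSRY-OFF arrays and 1 hSRY-ON array, at 208 to 219.5 against 181 to 197. Each of these 4 passed the filter on low signals only through its brighter group, so no fold or p is given for them. The bright Pik3r1 probes ILMN_2473531 and ILMN_3114641 had log2 fold changes of 0.12 and 0.098.

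**Figure D4:**
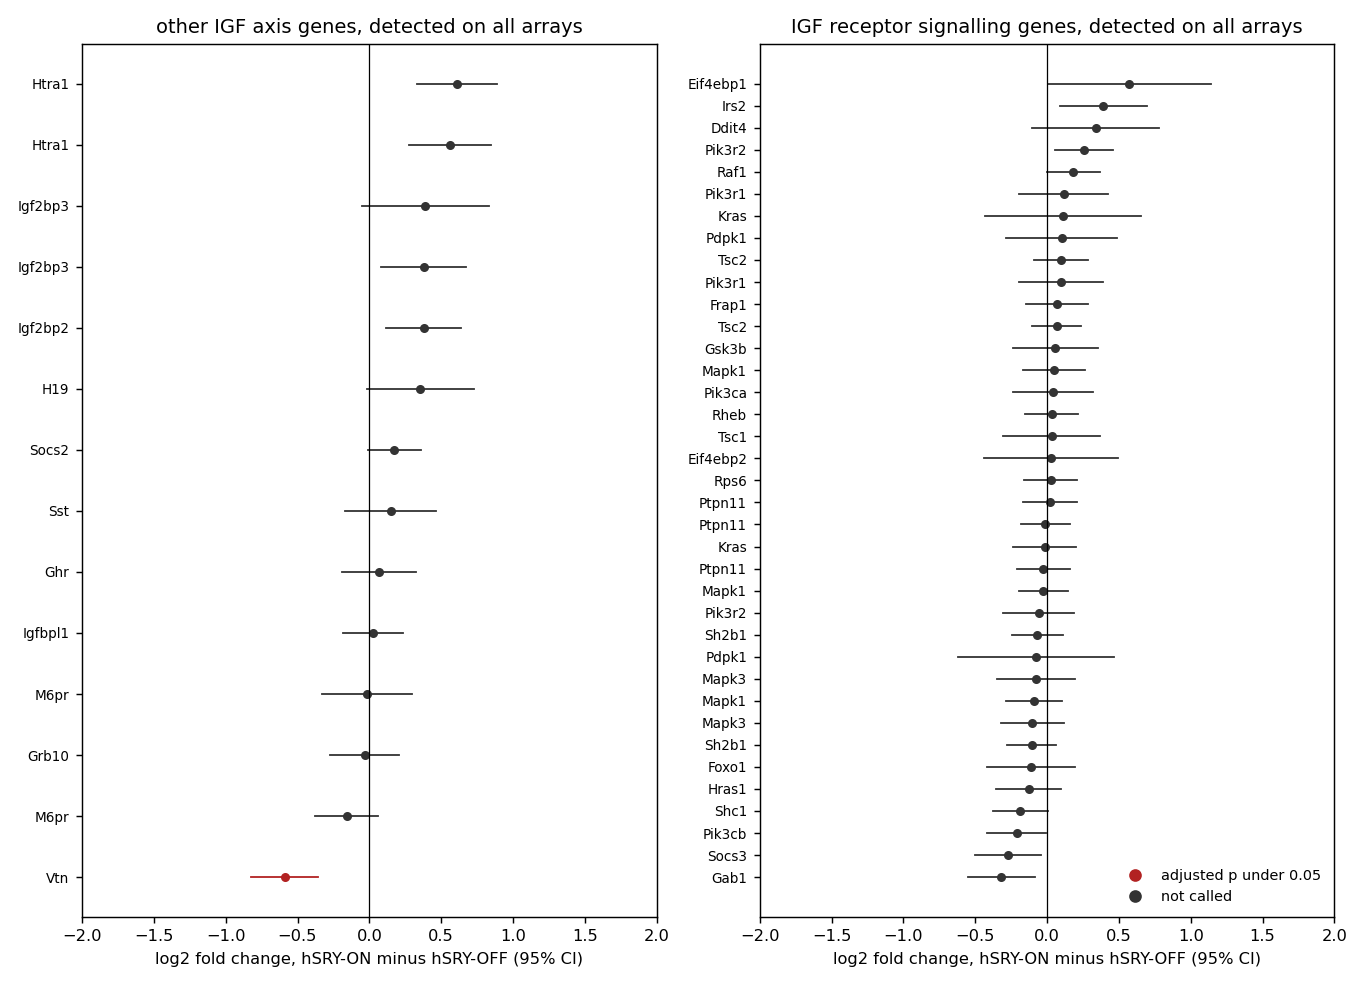
Log2 fold change (horizontal axis, hSRY-ON minus hSRY-OFF, with 95% confidence intervals) of the probes of the other IGF axis genes (left, 14) and of the receptor signalling genes (right, 37) that were detected on all 6 arrays, in order of size. Red marks an adjusted p under 0.05, which Vtn alone had.

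The probes whose values over the 6 arrays were most like those of a member were found by Pearson's r of the normalized log2 signals. The members were the ones with the lowest p in each direction, Igf1r and Igfbp4 ILMN_2694955, together with Igfbp3, which was added after its values were seen. The 5 probes most like Igf1r were those of Ppp2r2d (r = 0.998), Tcfl5 (0.997), Ykt6 (0.996), 1500015O10Rik (0.996) and a2ld1 (0.996). Their log2 fold changes ran from 0.15 for Ppp2r2d to 0.69 for a2ld1, so the likeness is one of shape and not of size. For Igfbp4 they were Tead2 (r = 0.994), Hsd11b1 (0.994), Bcs1l (0.992), Dlgap2 (0.992) and Tmem49 (0.992).

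The probes most like Igfbp3, with its highest value on hSRY-ON array 1 and its lowest hSRY-ON value on array 3, were those of Lamp2 (r = 0.999), Spg7 (0.996), Ubap2l (0.994), Vegfa (0.994) and 1500012F01Rik (0.992). With the difference between the groups removed, the r of these 5 with Igfbp3 was 0.995, 0.985, 0.988, 0.975 and 0.971, which the choice of the likest probes largely fixes. This r was 0.906 to 0.985 for the probes likest Igf1r. For those likest Igfbp4 it was lower, at 0.516 to 0.704, so that likeness was in larger part the difference between the groups. Vegfa, the vascular endothelial growth factor gene, had a log2 fold change of 0.82 ± 0.188 (SE; limma adjusted p = 0.0717). The 6 points of each correlation come from the same RNA and include the difference between the groups. Values over 0.95 were common, with 125 other probes for Igf1r, 147 for Igfbp4 and 167 for Igfbp3.

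**Figure D5:**
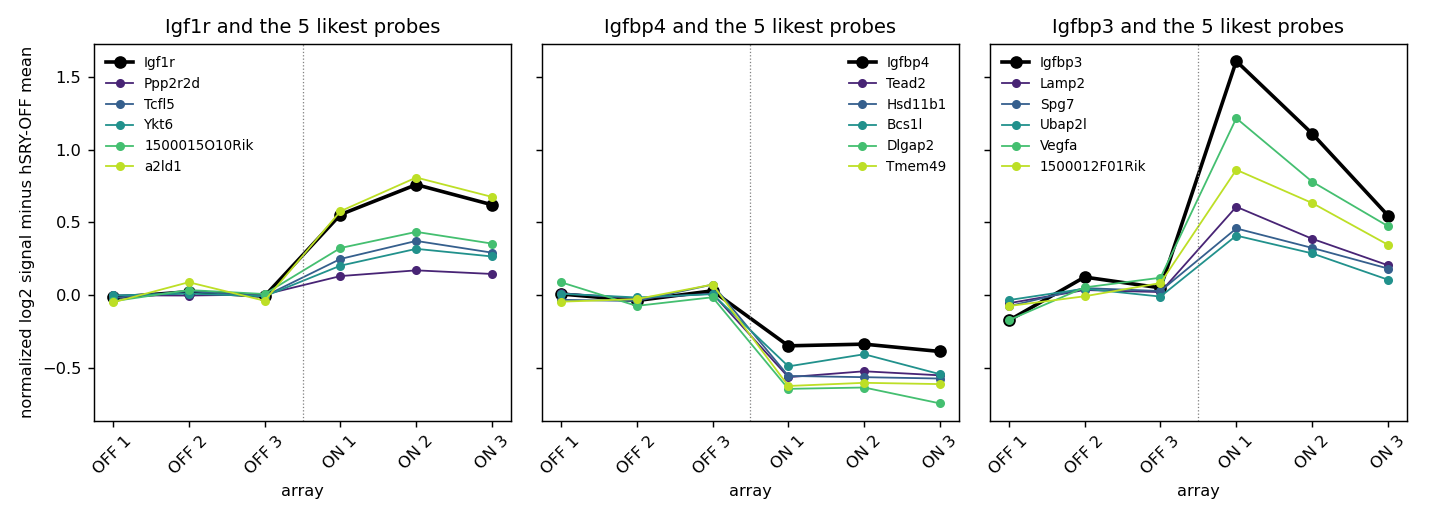
Normalized log2 signal minus the hSRY-OFF mean (vertical axis) on each array (horizontal axis) for Igf1r, Igfbp4 ILMN_2694955 and Igfbp3 in black and their 5 likest probes in colour, with lines joining the arrays of a probe only to guide the eye. The hSRY-ON values are near each other for Igf1r and Igfbp4, whereas for Igfbp3 and its likest probes they are highest on array 1 and lowest on array 3.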

How the data were processed

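Per the labels, total RNA of each brain was made into biotinylated cRNA. The authors deposited, for each of 25697 probes, an unnormalized bead intensity and a detection p-value on each of 6 arrays. The study's methods name TCC and the submitters' processing notes limma, with no settings given in the sources used here, and a deposited background correction is not stated. The linear intensities were corrected here with limma's normexp model (version 3.58.1, R 4.3.3), with the background inferred from the detection p-values and an offset of 16, then quantile normalized and put on the log2 scale. The correction widens the spread and the differences of dim probes. Testing required a detection p-value under 0.05 on 3 or more arrays and used lmFit and eBayes, with the group as the only term, two-sided and Benjamini-Hochberg adjusted over all 14215 tested probes. Every adjusted p is from limma. The precision is limited by 3 arrays in each group.

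All probes of the 10 genes were named. From the other IGF axis and signalling lists, the called probes and the 6 others with the lowest p were named, from the marker lists the called probes and up to 3 defining genes, and other genes of the lists were named after their values were seen. The members and lists were chosen with earlier results of these data known. No test was made over a list, and 1 gene was left out of the signalling list and of its counts and is not reported here. A self-test on simulated data was run. Promoters were matched to RefSeq by symbol. No probe sequences were used here. The alternatives were other background corrections, normalizations, filters, priors, array weights, a replicate block and leaving out each array. Plots were made in Python 3.11.15 (matplotlib 3.10.9).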

Additional observations from a re-analysis of the deposited data

How the results depend on the processing

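How many probes were called varied with the settings. The counts were 308 of all tested probes, 1 IGF member, 1 of the other IGF axis and 0 of receptor signalling, in that order, and they became 1317, 6, 4 and 2 without background correction, 860, 3, 3 and 1 with normexp at an offset of 50, and 1447, 5, 4 and 3 with a trended, robust prior. With array weights the counts were 480, 3, 2 and 0, and with detection under 0.01 on all 6 arrays 705, 3, 3 and 0 (3190, 7, 7 and 10, and 2843, 7, 6 and 8, at an unadjusted p under 0.05). With no filter on dim probes they were 123, 1, 0 and 0 (3654, 6, 7 and 12 at an unadjusted p under 0.05). Median scaling and cyclic loess gave 332 and 338 probes and 1 IGF member. Leaving out 1 array at a time gave 0 to 417 probes (2236 to 3150 at an unadjusted p under 0.05), 0 to 2 IGF members (4 to 6 unadjusted), 0 to 3 of the other axis, 0 to 1 of signalling (4 to 10 unadjusted) and 6 to 9 IGF probes (5 with all arrays) without overlap between the groups. More than 1 probe was called only without hSRY-ON array 3.

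The replicate numbers of the groups were not taken as pairs. Deviations from the group means correlated at 0.040, 0.029 and 0.025 for numbers 1, 2 and 3, all under 0.1, although every array correlated best with its own number, which is a hint from the data and not from the design. With the replicate number as a block, limma called 0 probes of the whole table, 0 IGF members, 0 of the other axis and 0 of signalling (2906, 5, 7 and 8 at an unadjusted p under 0.05), and Igf1r had an adjusted p of 0.0989.

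Over 15 alternatives, Igf1r kept its sign, with log2 fold changes of 0.39 to 0.69 and adjusted p values of 0.0020 to 0.109, and was called in 9. Igfbp3 was called in 5, with 0.83 to 1.36 and 0.0022 to 0.170, Igfbp4 ILMN_2694955 in 5, and Igfbp7 and each Igfbp2 probe in 2. The signs reversed for Igf2r ILMN_2931095 (-0.064) and ILMN_2931096 (-0.019) without hSRY-ON array 1 and for Igfbp6 without hSRY-OFF array 2 (0.12) or hSRY-ON array 1 (0.069), none of them called. The 4 other scalings moved the median of all probes by under 0.02. The cause of these changes was not tested.

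Over all tested probes, the marker medians without background correction were -0.12 for endothelium, 0.21 for choroid plexus, -0.083 for astrocytes and 0.11 for microglia. With no filter they were -0.24, 0.18, -0.060 and 0.096. Under these settings meninges were at -0.10 and -0.10 and erythroid cells at -0.076 and -0.0046. With normexp at an offset of 50 endothelium was at -0.19, and with the stricter detection filter astrocytes were at -0.041. Leaving out 1 array gave -0.37 to -0.24 for endothelium, 0.25 to 0.45 for choroid plexus, 0.11 to 0.23 for microglia, -0.24 to -0.14 for meninges, -0.16 to -0.019 for erythroid cells (-0.019 without hSRY-ON array 3, -0.043 without hSRY-OFF array 1), -0.079 to 0.065 for mural cells and -0.087 to 0.046 for neurons.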
